A study of Homo sapiens with 4 samples.

Results

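The enzymes described here make the nucleotides that cells use for DNA and RNA synthesis. They are encoded by 9 genes, namely RRM1, RRM2, RRM2B, TK1, DCK, TYMS, IMPDH1, IMPDH2 and GMPS. The genes were chosen by name, as nucleotide synthesis and salvage genes of a reported mutant p53 programme. All 9 were among the 18417 genes compared, and each was read by 1 transcript cluster, the set of probes that the array assigns to a gene. The cells were MDA-MB-468, a breast cancer cell line with endogenous mutant p53-R273H, and their total RNA was hybridised to 4 Human Gene 1.0 ST arrays (Affymetrix). On 2 arrays the cells had received p53si-1, a lentiviral shRNA directed at p53, and on 2 arrays a non-targeting lentiviral shRNA (NS). Both groups share the line, the serum-supplemented RPMI medium and lentiviral transduction, so the arrays describe 1 line and 1 p53-directed shRNA sequence. The study's methods and results give different times after transduction for the arrays, and the legend of its heat map says that the replicate experiments were conducted independently.

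Ribonucleotide reductase converts ribonucleotides into the deoxyribonucleotides used for DNA. Its large subunit RRM1 works with either of a pair of small subunits, RRM2, which accumulates in S phase, or RRM2B, which wild-type p53 can induce and which serves DNA repair and mitochondrial DNA outside S phase. Thymidine kinase 1 (TK1) and deoxycytidine kinase (DCK) salvage deoxynucleosides, and thymidylate synthase (TYMS) makes thymidylate from deoxyuridylate. The IMP dehydrogenases IMPDH1 and IMPDH2 carry out the rate-limiting step of guanine nucleotide synthesis, and GMP synthetase (GMPS) completes it.

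The values were RMA signals on a log2 scale, and fold change is the mean of the p53si-1 arrays minus the mean of the NS arrays. Array medians lay between 5.66 and 5.69 over 33297 transcript clusters. The p53 transcript is not analysed here, so no measure of the knockdown is given. All 7 epithelial marker genes had mean signals above the median gene (6.59), while 7 of 8 leukocyte, 6 of 7 fibroblast and 5 of 6 endothelial markers lay below it. Summed linear signals of the leukocyte markers were 998 to 1077 on p53si-1 arrays and 1025 to 1147 on NS arrays. Those of the fibroblast markers were 279 to 304 on p53si-1 arrays and 312 to 322 on NS arrays. Those of the endothelial markers were 644 to 738 on p53si-1 arrays and 492 to 598 on NS arrays, and include KDR at log2 signals of 8.91 and 9.18 with p53si-1, against 8.36 and 8.73 with NS. The leukocyte sums include CD14, at a mean log2 signal of 9.78. All arrays carried RNA of the same cultured breast cancer line. The sums therefore describe signals of these genes, and not numbers of leukocytes, fibroblasts or endothelial cells. The part of these sums in the results was not tested. In bulk RNA, a change in some cells of the line cannot be told apart from a change in all of them.

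None of the 9 genes passed an adjusted p of 0.05 from limma, and none differed by over 1.5-fold between the groups. RRM2B came closest to both, with a lower signal on the p53si-1 arrays. At an unadjusted p under 0.05 from limma there were 4 of the 9, RRM2 and DCK with higher means and RRM2B and TK1 with lower means. Over all genes, 0.109% passed the adjusted threshold (0.0326% higher and 0.076% lower with p53si-1), 0.923% differed by over 1.5-fold (0.271% higher and 0.652% lower) and 12.3% had an unadjusted p under 0.05 (5.45% higher and 6.8% lower). The p53si-1 arrays lay wholly above or wholly below the NS arrays for 5 of the 9 genes, 3 above and 2 below, against 42.5% of all genes, 19.9% above and 22.6% below. The limma p-values and intervals combine the spread of a gene's own replicates with a prior variance estimated from all genes. The first has 2 degrees of freedom and the second 4.2, so the prior weighs more. DCK had replicate standard deviations of 0.015 (p53si-1) and 0.011 (NS), but a standard error of 0.080. With 2 arrays a group, precision stays low.

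The promoters of RRM2 and TK1 are shown because both hold several CCAAT boxes, the motif bound by NF-Y, a factor that mutant p53 is reported to bind, while the means of the genes differed in opposite directions on the arrays. Sequences are from RefSeq (GRCh38.p14), each entry running from 250 bases before a gene's start to 50 after it. Entries were found for 7 of the 9 genes, and RRM2B and IMPDH2 are named only. The letters CCAAT were searched on both strands and stand in capitals (as ATTGG where the box lies on the opposite strand). All are written 5′ to 3′ in the direction of transcription.
RRM2 (chr2:10122608-10122628, plus strand): aggcgcagCCAATgggaaggg
RRM2 (chr2:10122638-10122658, plus strand): tggcacagCCAATgggaaggg
RRM2 (chr2:10122665-10122685, plus strand): caccaaagCCAATgggaaggg
TK1 (chr17:78187117-78187137, minus strand): gggcgctgATTGGccccatgg
TK1 (chr17:78187086-78187106, minus strand): ggctcgtgATTGGccagcacg
RRM1 (chr11:4094649-4094669, plus strand): gtccatatCCAATggggccca

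RRM2 and TK1 each have 2 starts in the table, and the boxes shown belong to the entry of the downstream one. From that start, the boxes of RRM2 begin 123, 93 and 66 bases before it and those of TK1 77 and 46 bases before it. From the upstream start of each gene the same boxes lie 48, 78 and 105 bases after it in RRM2 and 75 and 106 bases after it in TK1. The box of RRM1 begins 28 bases before its single start. The entry of the upstream start of RRM2 holds 1 more box at its edge, and that of TK1 holds none. No CCAAT was found in the entries of the other 4 genes with a promoter, DCK, TYMS, IMPDH1 and GMPS. Of all 35116 entries, 34.6% hold at least 1 CCAAT, 10.8% at least 2 and 3.26% at least 3. Among the genes with a box, the log2 fold changes were 0.22 for RRM2, 0.026 for RRM1 and -0.22 for TK1, and none passed an adjusted p of 0.05 from limma. RRM2 and TK1 were shown in part for their opposite signs, so the values say nothing on a direction common to genes with these letters. GC boxes (GGGCGG, either strand) were counted on their own, since the last letters of ATTGG can also begin one. They were in 45.0% of entries. Counted by gene and not by entry, they were in at least 1 entry of 6 of the 7 genes, all but TYMS. In RRM2 that was the entry of the upstream start, and the entry with the boxes shown held none.

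**Figure D1:**
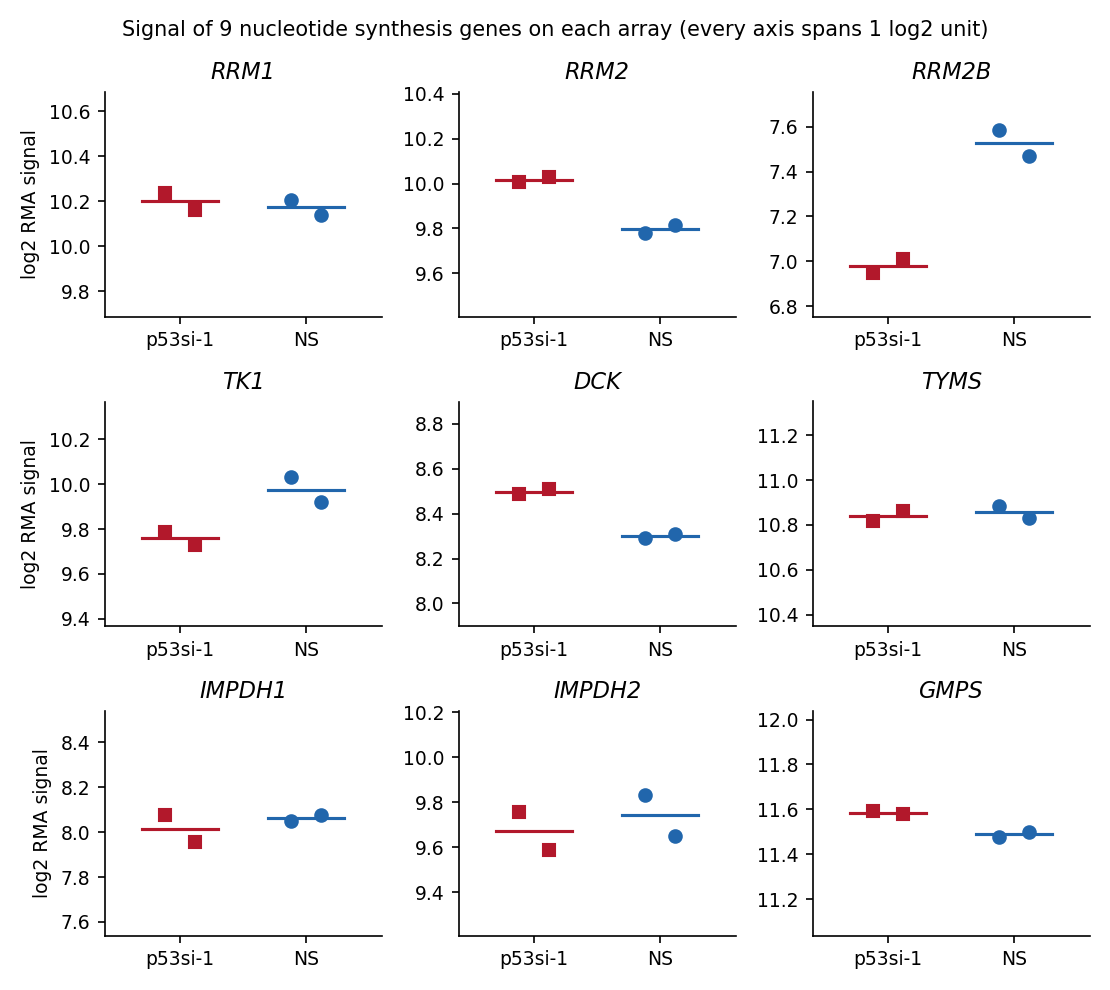
Log2 RMA signal of the 9 genes on each array, with p53si-1 arrays as squares, NS arrays as circles and group means as bars; every axis spans 1 log2 unit and starts at a different level. The groups do not overlap for RRM2, RRM2B, TK1, DCK and GMPS, and overlap for the other 4 genes.

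RRM2B, the p53-inducible small subunit, had log2 signals of 6.95 and 7.01 on the p53si-1 arrays, against 7.59 and 7.47 on the NS arrays. Both p53si-1 arrays were low, and the gap between the groups was wider than the gap between replicates in either. The log2 fold change was -0.55 with a standard error of 0.087 and a 95% interval of -0.76 to -0.34, a 1.46-fold difference. Its adjusted p was 0.0903 from limma, and 0.0291 to 0.324 over the other settings tried, so that it did not pass in the fit of all genes but did when genes below the median signal were left out. By unadjusted p RRM2B ranked 132 among the 18417 genes, and 1.16% of the genes had a larger absolute fold change. Without NS replicate 2 the difference was -0.61 and exceeded 1.5-fold.

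RRM2, the S phase small subunit, stood on the other side. Its log2 signals were 10.01 and 10.03 on the p53si-1 arrays, against 9.78 and 9.82 on the NS arrays. Replicates of a group lay closer together than the groups did. The log2 fold change was 0.22 with a 95% interval of 0.025 to 0.41 (adjusted p = 0.356 from limma). RRM1, the large subunit that both share, had signals of 10.24 and 10.16 with p53si-1 and 10.21 and 10.14 with NS. These overlap, and the log2 fold change was 0.026 with an interval of -0.18 to 0.23, with a sign that turned when NS replicate 2 or p53si-1 replicate 1 was left out.

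RRM2 and RRM2B share the partner RRM1, and their log2 signals were also subtracted within each array. Different probes read the genes, so only the change of this difference between groups can be interpreted, not its level. RRM2B minus RRM2 was -3.06 and -3.02 on the p53si-1 arrays, against -2.19 and -2.35 on the NS arrays. The mean difference between p53si-1 and NS was -0.77, with a 95% interval from the pooled spread of the replicates of -1.11 to -0.43. An exact two-sided permutation test gave p = 0.333, the smallest p that 2 arrays against 2 allow. Without 1 array the difference ran from -0.85 to -0.69.

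TK1 and DCK, the cytosolic deoxynucleoside kinases, had means that differed in opposite directions. TK1 was at 9.79 and 9.73 on the p53si-1 arrays and at 10.03 and 9.92 on the NS arrays. Its log2 fold change was -0.22 with an interval of -0.43 to -0.0068 (adjusted p = 0.394 from limma). DCK was at 8.49 and 8.51 on the p53si-1 arrays and at 8.29 and 8.31 on the NS arrays. Replicates of DCK differed by no more than 0.021 in either group, while the groups differed by 0.20 (interval 0.0044 to 0.39, adjusted p = 0.398 from limma). TYMS, which feeds the same thymidylate pool as TK1, was at 10.82 and 10.86 with p53si-1 and at 10.89 and 10.83 with NS. The groups overlap, and the log2 fold change was -0.017 with an interval of -0.21 to 0.18, positive after median centring (0.0080).

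In the guanine branch no gene had an unadjusted p under 0.05 from limma. GMPS was at 11.59 and 11.58 on the p53si-1 arrays and at 11.48 and 11.50 on the NS arrays. Both p53si-1 arrays were higher, by a mean of 0.096 on the log2 scale (interval -0.097 to 0.29, adjusted p = 0.697 from limma). After quantile normalization the difference of GMPS was 0.018 (adjusted p = 0.957 from limma). IMPDH1 was at 8.07 and 7.96 with p53si-1, against 8.05 and 8.07 with NS, and IMPDH2 was at 9.76 and 9.59, against 9.83 and 9.65. The replicate 2 array of IMPDH2 lay below the replicate 1 array in both groups, by 0.17 with p53si-1 and 0.18 with NS, which exceeds the difference between the groups. The log2 fold changes were -0.048 (interval -0.26 to 0.16) for IMPDH1 and -0.070 (interval -0.33 to 0.19) for IMPDH2. Within arrays, IMPDH1 minus IMPDH2 differed by 0.023 between p53si-1 and NS, with an interval of -0.44 to 0.48 (exact permutation p = 1, two-sided). These intervals leave room for differences of either sign.

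**Figure D2:**
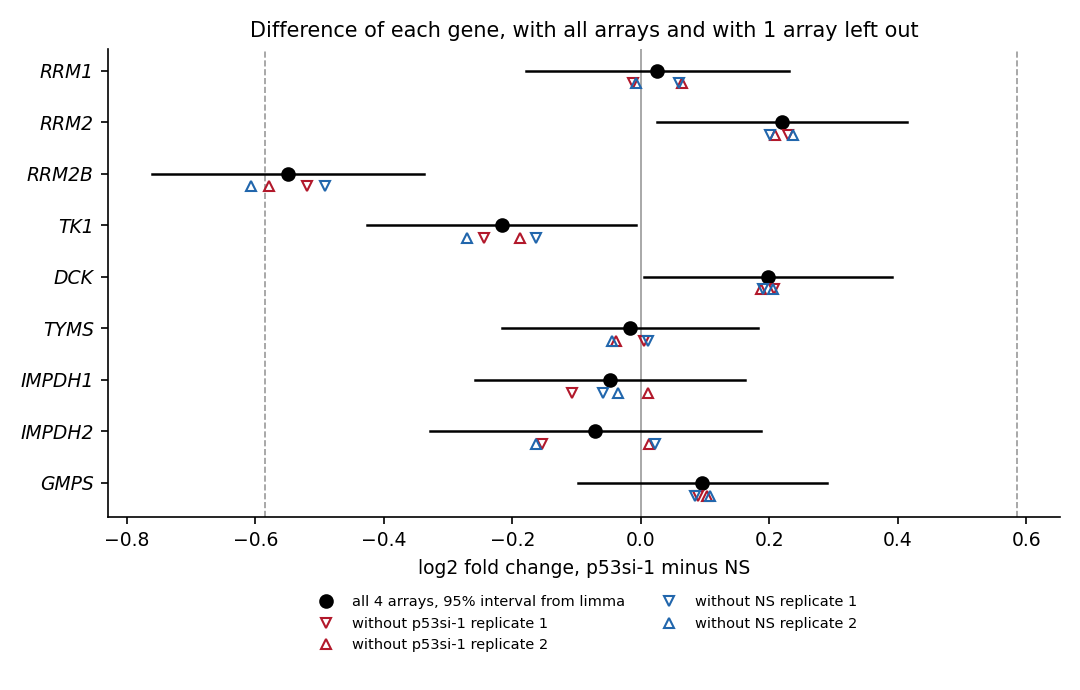
Difference in log2 signal, p53si-1 minus NS, for the 9 genes over all 4 arrays with its 95% interval from limma (black), and with each array left out in turn (open triangles); dashed lines mark 1.5-fold. RRM2B kept a difference between -0.61 and -0.49 in each of these fits, while 4 genes (RRM1, TYMS, IMPDH1 and IMPDH2) changed sign in at least 1 of them.

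As a group the 9 genes did not lean to a side. Of the 9, 5 had a lower and 4 a higher mean with p53si-1, against 52.6% of all genes with a lower and 47.4% with a higher mean, and their median log2 fold change was -0.017, against -0.0089 over all genes. Without 1 array the number with a lower mean ran from 3 to 6. It was 3 without NS replicate 1 or without p53si-1 replicate 2. Same-numbered arrays gave medians of 0.024 for replicate 1 and 0.022 for replicate 2. RRM2B was the only one of the 9 to differ by over 1.2-fold, as 10.6% of all genes did.

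**Figure D3:**
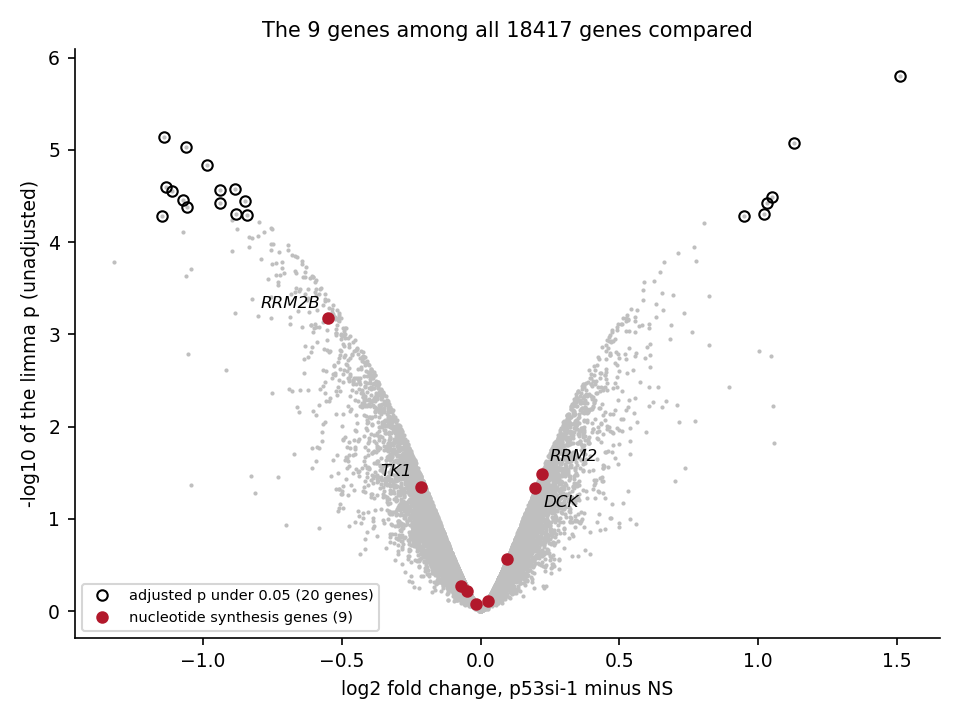
Log2 fold change (p53si-1 minus NS) against -log10 of the unadjusted limma p for all 18417 genes (grey), with the 9 nucleotide synthesis genes in red and the 20 genes at an adjusted p under 0.05 ringed. RRM2B lies at -0.55 outside most of the grey points, RRM2, TK1 and DCK lie near 0.2 on either side, and the other 5 lie near 0.

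The rest of nucleotide metabolism was followed through 6 lists that hold 59 measured genes, and another 5 listed genes are not analysed here. The 59 include RMRP, which stands in the kinase list but is not a nucleotide kinase. None of the 59 passed an adjusted p of 0.05 from limma, and 4 had an unadjusted p under 0.05, 1 higher and 3 lower, against 12.3% of all genes. Their median log2 fold change was -0.018. The largest differences were those of SAMHD1, the triphosphohydrolase that degrades deoxynucleotides, and PPAT, the amidotransferase of the committed step of purine synthesis, and over all 4 arrays these 2 alone exceeded 1.5-fold, as 0.923% of all genes did.

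SAMHD1 had log2 signals of 7.60 and 7.59 on the p53si-1 arrays, against 8.29 and 8.40 on the NS arrays. The replicates were close and the groups wide apart. The log2 fold change was -0.75 with a 95% interval of -0.95 to -0.54 and an adjusted p of 0.0581 from limma. It passed after median centring (adjusted p = 0.0425), with the prior variance depending on the signal (0.0187) and without dim genes (0.0154), and ran up to 0.263 over the settings tried. PPAT was at 8.49 and 8.59 on the p53si-1 arrays, against 9.14 and 9.28 on the NS arrays. Its log2 fold change was -0.67 with an interval of -0.89 to -0.44 and an adjusted p of 0.0721 from limma. It passed with the prior variance depending on the signal (adjusted p = 0.0233) and without dim genes (0.0222), over a range up to 0.263.

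The other enzymes of purine synthesis lay on both sides of 0. Among 9 measured genes of that list, 5 had a lower and 4 a higher mean, and the median was -0.0046. The groups did not overlap for 8 of them, 4 above and 4 below, against 42.5% of all genes. Over the 59 measured genes of the 6 lists the groups did not overlap for 27, and the purine list was not tested as a set. ADSS1, an adenylosuccinate synthase, was next in size to PPAT at -0.30 (interval -0.62 to 0.013) and ran from -0.45 to -0.16 without 1 array. The other genes without overlap are named after their values were seen. PRPS1 and PFAS were lower, at -0.17 and -0.099, and PAICS, GART, ADSL and ATIC were higher, at 0.16, 0.15, 0.11 and 0.070, each with an interval that includes 0. In the 5 genes of pyrimidine synthesis the log2 fold changes ran from -0.082 (DHODH, dihydroorotate dehydrogenase) to 0.11 (CTPS2, a CTP synthase), with a median of 0.056. In the 9 measured genes of the folate cycle and thymidylate supply they ran from -0.19 (MTHFD2L, a mitochondrial folate enzyme) to 0.17 (SHMT1, the cytosolic serine hydroxymethyltransferase), with a median of 0.0096.

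Among 15 salvage genes the median was -0.036, with UPP1 (uridine phosphorylase) at 0.30 and TYMP (thymidine phosphorylase) at -0.21. Without 1 array UPP1 ran from 0.14 to 0.47 and TYMP from -0.40 to -0.030, both ends of each range being set by leaving out a p53si-1 array. UPP1 was at 7.50 and 7.82 with p53si-1, against 7.38 and 7.34 with NS, and the p53si-1 arrays differed from each other more than the nearer of them did from the NS arrays (adjusted p = 0.403 from limma). The nucleotide kinase list had 9 measured genes and a median of -0.039, with GUK1 (guanylate kinase) at -0.26 and CMPK1 (UMP/CMP kinase) at 0.20. Among the 9 is RMRP at 0.0115, which is not a nucleotide kinase, so the median includes a gene outside that family. Without 1 array GUK1 ran from -0.42 to -0.093 and CMPK1 from 0.13 to 0.27. Among 12 genes of nucleotide breakdown the median was -0.022. DPYD (dihydropyrimidine dehydrogenase) followed SAMHD1 there at -0.44 with an interval of -0.96 to 0.078, its arrays overlapping at 6.95 and 6.39 with p53si-1 and 7.33 and 6.90 with NS. DPYD exceeded 1.5-fold without p53si-1 replicate 1 (-0.72) or NS replicate 2 (-0.65), and was at -0.16 without p53si-1 replicate 2 and -0.23 without NS replicate 1. AMPD2, an AMP deaminase named after its values were seen, was at -0.27 (interval -0.48 to -0.070, adjusted p = 0.284 from limma). Both p53si-1 arrays of AMPD2 lay below both NS arrays.

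RRM2, TK1 and TYMS are made in S phase, and RRM2B is a target of wild-type p53, so these programmes were set beside them. Of 30 S phase and DNA replication genes, 18 had a higher and 12 a lower mean, with a median of 0.051. None passed an adjusted p of 0.05 from limma, and 2 higher and 2 lower genes had an unadjusted p under 0.05, a share near the 12.3% of all genes. For 13 of the 30 the p53si-1 arrays lay wholly above the NS arrays and for 6 wholly below. Over all genes these shares were 19.9% and 22.6%, and the list was not tested as a set. CCNE2 (cyclin E2) was at 0.31 and CDC6, a replication licensing factor, at -0.30, between -0.45 without p53si-1 replicate 2 and -0.14 without p53si-1 replicate 1. Of 27 measured targets of wild-type p53, 16 had a lower and 11 a higher mean, with a median of -0.039, none passed, and 2 higher and 3 lower genes had an unadjusted p under 0.05, against 5.45% of all genes higher and 6.8% lower. The log2 fold changes of the list ran from -0.47 (the death receptor FAS) to 0.46 (TP53INP1, a stress-induced autophagy protein), and RRM2B at -0.55 lay below all 27. FAS was at 7.02 and 6.83 with p53si-1, against 7.39 and 7.41 with NS. TP53INP1 was at 7.45 and 7.46 with p53si-1, against 6.95 and 7.03 with NS, and passed only without dim genes among the settings tried (adjusted p = 0.0352 from limma). The groups did not overlap for 4 targets above and 8 below, a share near that of all genes (42.5%, with 19.9% above and 22.6% below).

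The genes whose 4 values were most like those of RRM2B, after each gene was centred on its own mean, were CCDC90B, ADPGK and APOBEC3F, with root mean square differences of 0.015, 0.016 and 0.028 log2 units. They were taken from 5480 genes with a mean signal within 1 log2 unit of RRM2B. Their log2 fold changes were -0.55, -0.52 and -0.52, and none passed an adjusted p of 0.05 from limma (0.0889, 0.0975 and 0.0903). Without dim genes all 3 passed, as RRM2B did (adjusted p = 0.0261, 0.0326 and 0.0291 from limma). For APOBEC3F another transcript cluster gave -0.074. These 3 genes are the closest by selection. With 4 arrays their likeness to RRM2B rests on few values and was not tested. The control genes GAPDH, ACTB and B2M had log2 fold changes of -0.086, -0.069 and 0.051, and none passed (adjusted p = 0.769, 0.792 and 0.871 from limma).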

How the data were processed

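MDA-MB-468 cells transduced with p53si-1 or NS shRNA were profiled on 2 arrays each. For every array the authors deposited a log2 RMA signal of each transcript cluster. GCOS, RMA and Affymetrix Expression Console are named in the submitters' processing notes. The scale was judged from the range of the values. The sources used here give no RMA settings, annotation version or genome build, so no gene coordinates are printed beside the arrays' values. RMA makes arrays alike, which removes a change common to most genes, and it can understate fold changes.

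Of 33297 clusters, 19460 name 1 symbol in the platform annotation, and 1754 with several symbols and 12083 unnamed here were not used. Each of 18417 genes was read from its cluster with the highest mean. limma 3.58.1 in R 4.3.3 (lmFit, eBayes) was fitted to all genes, with Benjamini-Hochberg adjustment over them. Promoter motifs were counted in the RefSeq table.

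The members and lists were chosen with earlier results of these data known. The rule for named genes takes the 9 members, the 2 largest differences of each list and any other of its genes passing over all genes, 3 control genes and the 3 genes most like RRM2B. The steps were tested on simulated data. Alternatives changed the cluster, the normalization, the dim-gene filter, the prior variance, the fold criterion and the block, and left out each array.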

Additional observations from a re-analysis of the deposited data

How the results depend on the processing

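The number of genes called at an adjusted p under 0.05 moved with the processing, from 20 to 4 with the lowest cluster per gene, 4 with a robust prior, 12 with the replicate number as a block, 55 after median centring, 149 with the prior variance depending on the signal and 220 without dim genes, against 170 by 1.5-fold alone. Without 1 array it was 0 to 1. The number of the 9 genes called was 1 without dim genes, where fewer genes were tested and the prior variance came from them alone. It was 0 with the replicate number as a block, which changed no call among the 9. Same-numbered arrays deviated together over genes (correlation 0.24), but no source says that the number marks a shared culture. By 1.2-fold 1 of the 9 was counted, and without 1 array 0 to 1 by 1.5-fold and 3 to 6 with a lower mean. Without 1 array RRM2B minus RRM2 ran from -0.85 to -0.69 and IMPDH1 minus IMPDH2 from -0.081 to 0.13.

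List medians moved to 0.019 for pyrimidine synthesis after quantile normalization. After median centring they were 0.034 for the folate list, 0.0024 for breakdown and -0.014 for p53 targets, and without dim genes 0.071 for the folate list and 0.025 for breakdown. Without 1 array they ran from -0.072 to 0.059 for purine synthesis, -0.015 to 0.050 for pyrimidine synthesis, -0.010 to 0.098 for the folate list, -0.12 to -0.019 for kinases, -0.086 to 0.0025 for breakdown, 0.011 to 0.071 for S phase and -0.050 to -0.028 for p53 targets.

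TYMS turned to 0.0080 after median centring. Without 1 array TYMS ran from -0.045 to 0.012, RRM1 from -0.012 to 0.064, IMPDH1 from -0.11 to 0.012, IMPDH2 from -0.16 to 0.022, DHODH from -0.21 to 0.050 and B2M from -0.022 to 0.12. Of 108 values of the 9 genes under alternatives, 99 kept their sign and side of the threshold, but many could not change sign. The choice of cluster, the prior variance, the block and the dim-gene filter left the fold changes of these genes as they were. All 8 reversals of sign came after median centring or without 1 array. The cause of these shifts was not tested. With 2 arrays a group, differences as small as those of TYMS, RRM1, IMPDH1 and IMPDH2 are below what the arrays can resolve.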
